A study of Mus musculus with 6 samples.

Results

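Regulatory T cells of the mouse lung were described from 169 cells of 71634 leukocytes in all, selected on their measured counts of Foxp3 and a few other genes. A cell was counted as a regulatory T (Treg) cell when it held at least 1 unique molecular identifier (UMI, 1 captured transcript) of Foxp3 and at least 1 UMI summed over the T cell receptor complex genes Cd3e, Cd3d, Cd3g and Trac. It also had to hold 0 UMIs of Cd8a and Cd8b1 and at most 1 UMI summed over Cd79a, Plet1, Siglech, Retnlg, Ace and Vcan, which mark B cells, alveolar macrophages, plasmacytoid dendritic cells, neutrophils, nonclassical monocytes and classical monocytes. The study set 3 libraries of normal lung (labelled Ctrl, here normal 1 to normal 3) beside 3 libraries of lung infiltrated by acute myeloid leukaemia (AML 1 to AML 3). In both groups the lungs were perfused, digested with collagenase and DNase I and enriched for CD45+ leukocytes on magnetic beads before droplet single-cell 3′ RNA sequencing. Strain, age, the leukaemia model and the interval since engraftment are not given in the sources used here, and the labels do not say whether the libraries of a group came from separate animals. The p-values therefore measure the spread between these libraries, which may be technical.

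Treg cells are CD4+ T cells that hold back other immune cells, and the transcription factor Foxp3 sets up and keeps their programme. They carry the high-affinity interleukin-2 receptor chain Il2ra, which takes up interleukin-2 that they hardly make themselves, and the inhibitory receptor Ctla4, which strips costimulatory ligands from antigen-presenting cells. Resting Treg cells circulate through lymphoid organs with the homing receptor Ccr7, whereas those of tissues such as the lung carry the interleukin-33 receptor Il1rl1, Klrg1 and the integrin chain Itgae, and can make the tissue repair factor Areg.

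The label was checked against the markers that the rule did not use. Foxp3 lies on chromosome X from 7573644 to 7595245 (GRCm38, plus strand), Ctla4 on chromosome 1 from 60887000 to 60915832, Ikzf2 on chromosome 1 from 69531214 to 69687245 and Il2ra on chromosome 2 from 11642807 to 11693193, all 4 protein-coding. Of the 169 Treg cells, 154 (91.1%) carried Ikzf2, the Helios transcription factor, 150 (88.8%) carried Ctla4 and 81 (47.9%) carried Il2ra, at a median of 5808 UMIs per cell. B cells, which should lack these genes, carried them in 1.45%, 4.13% and 1.69% of 5256 cells at a median of 3980.5 UMIs. At least 2 of the 3 markers were found in 151 Treg cells (89.3%), against 119 of 845 (14.1%) CD4 T cells without a Foxp3 UMI, and 7 Treg cells carried none. The markers thus went with the label, while some cells of the Foxp3-negative class carried them too.

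The rule left out 117 of 286 cells with a Foxp3 UMI, namely 62 without a Cd3 gene, 28 with Cd8 and 27 with 2 or more UMIs of the excluded genes. A low floor was seen in cells that should lack Foxp3, where 5 of 5256 B cells (0.0951%), 11 of 8607 alveolar macrophages (0.128%) and 7 of 15940 nonclassical monocytes (0.0439%) held a Foxp3 UMI. Just inside the threshold, the 92 Treg cells with 1 Foxp3 UMI held Ctla4 at 1942 and Ikzf2 at 3644 CPM (a gene's UMIs over all UMIs of those cells, on the usual CPM scale), and the 77 with 2 or more held 2023 and 3381. Just outside it, the 9 cells with 1 Cd8 UMI held 1887 and 4478 CPM, the 27 with the excluded genes 1232 and 1724, and 37 that failed only for want of a Cd3 UMI 342 and 780. These values describe the edge of the rule and were not tested.

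AML 3 stood apart in depth. Library totals lay between 43913245 and 66513826 UMIs, but AML 3 spread its total over 35229 kept cells, against 3538 to 12974 in the other 5 libraries. Its 33 Treg cells held a median of 1213 UMIs, against 5736 to 11045 elsewhere, and 30 of these 33 rested on a single Foxp3 UMI. The summed UMIs behind each library's Treg cells ran from 52301 in AML 3 to 342396 in AML 2. Between libraries 467 cell barcodes were shared, with none shared between Treg cells, and no pair of libraries of a group agreed within sampling noise. The main counts are also given without it.

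The share of Treg cells among Cd3-positive cells did not separate the groups. The share was 2.18%, 3.24% and 1.99% in normal 1 to normal 3 (10 of 458, 28 of 864 and 33 of 1660 cells), and 3.20%, 2.34% and 1.20% in AML 1 to AML 3 (21 of 657, 44 of 1877 and 33 of 2756). The exact 95% binomial intervals, which cover counting error only, were 1.05 to 3.98%, 2.16 to 4.65% and 1.37 to 2.78% in normal lung and 1.99 to 4.84%, 1.71 to 3.13% and 0.826 to 1.68% in AML lung. The groups overlapped, and AML 3 was the lowest of the 6. The mean share was 2.47% ± 0.674 over the normal and 2.25% ± 1.0 over the AML libraries (SD, n = 3 each), a difference of -0.225 percentage points with a two-sided exact permutation p of 0.9. The smallest p that 3 against 3 libraries allow is 0.1.

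The direction of this small difference turned with the counting. Without AML 3 it was 0.300 percentage points, and with each cell thinned to 1000 UMIs, which left out 911 shallower Cd3-positive cells of AML 3 and 1 to 220 of the others, the shares were 0.975%, 1.19% and 0.670% in normal lung and 0.885%, 1.04% and 0.95% in AML lung. Foxp3 UMIs per 1000 UMIs of the Cd3 genes, a measure over all Cd3-positive cells that was added after the data were seen, were 8.84, 10.1 and 7.90 in normal lung and 10.3, 12.4 and 13.3 in AML lung. All 3 AML libraries lay above all 3 normal ones on that scale, with means of 12 ± 1.54 and 8.95 ± 1.11 (SD, n = 3) and the smallest exact permutation p the design allows, 0.1. Foxp3 per all UMIs of the same cells, added likewise, was 7.44, 10.8 and 8.41 CPM in normal and 10.2, 11.6 and 14.7 CPM in AML lung; here the groups overlapped, AML 1 lying below normal 2 (exact permutation p = 0.2).

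**Figure D1:**
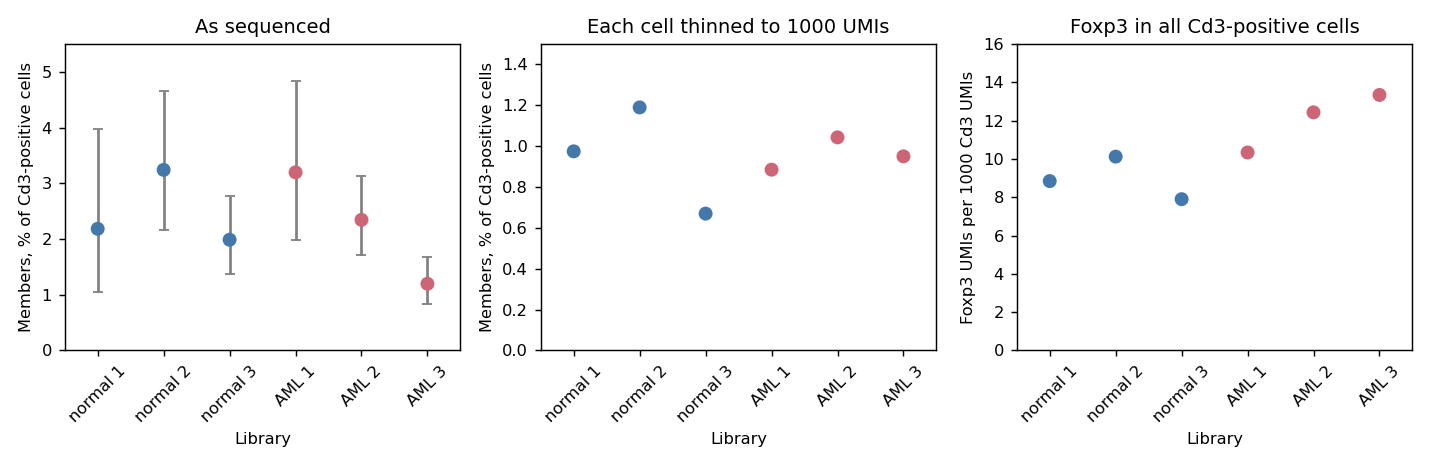
Treg cells as a percentage of Cd3-positive cells per library as sequenced (left, bars are exact 95% binomial intervals), after each cell was thinned to 1000 UMIs (middle), and Foxp3 UMIs per 1000 Cd3 UMIs over all Cd3-positive cells (right). Normal libraries are blue and AML libraries red; the groups overlap in the first 2 panels, while in the third the AML libraries lie at 10.3 to 13.3 and the normal ones at 7.90 to 10.1.

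Against CD4 T cells of the same libraries, Treg cells held more of the genes that define the lineage and fewer of those that mark resting and central CD4 T cells. The comparison class was the 845 cells with a Cd3 and a Cd4 UMI, without Foxp3 or Cd8 and under the same limit on the excluded genes. The Treg rule asked for no Cd4 UMI, so the 2 rules are not matched. Of the 169 Treg cells 86 (50.9%) held a Cd4 UMI, and in AML 3 it was 4 of 33. Counts were summed per library and class and compared within libraries (edgeR quasi-likelihood F test, Benjamini-Hochberg adjusted p under 0.05). Of 4975 genes tested, 473 (9.51%) were higher in Treg cells and 406 (8.16%) lower, counts that include Foxp3 and Cd4, which the 2 rules use. The 879 became 570 without AML 1, 555 without AML 2 and 1061 without AML 3. The median log2 difference over all tested genes was -0.000923. Levels below are CPM scaled by the trimmed mean of M values, and differences are log2.

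Ikzf2 stood at 3953, 3805 and 4117 CPM in the Treg cells of normal 1 to normal 3 and at 3506, 3570 and 3446 in those of AML 1 to AML 3. In the Foxp3-negative cells it stood at 159, 303 and 264 CPM and at 229, 211 and 1015, so every Treg sum lay above every other sum and AML 3 had the highest level outside Treg cells (log2 difference 3.72, SE 0.28, adjusted p = 1.54e-06). Ctla4 stood at 1749, 2833 and 2044 CPM in normal and 2162, 1777 and 3051 in AML Treg cells, against 224, 384 and 332 and 246, 238 and 766 CPM (2.77, SE 0.15, adjusted p = 1.07e-07). Il2ra stood at 212, 398 and 148 CPM in normal and 279, 228 and 374 in AML Treg cells, against 16.9, 26.4 and 22.7 and 21.3, 15.9 and 47.9 CPM (3.50, SE 0.21, adjusted p = 2.85e-07). For each of these 3 genes the sums of the 2 classes did not overlap across the 6 libraries, and leaving out any 1 library kept the adjusted p at 4.90e-05 or lower.

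Of 26 genes listed as the Treg core, 18 could be tested beside Foxp3, and all 18 were higher in Treg cells, with a median of 1.99 (20 of 20 without AML 3). Ikzf4, the Eos partner of Foxp3, was at 44.2 to 136 CPM in Treg cells and at 4.26 to 23.9 CPM in Foxp3-negative cells (2.90, SE 0.40). The semaphorin receptor Nrp1, a marker of thymus-derived Treg cells, was at 337 to 474 CPM against 81.0 to 182 CPM (1.88, SE 0.16). Of the ectoenzymes that turn extracellular ATP into adenosine, Entpd1 differed by 1.01 and Nt5e by 0.76. Il2rb, the signalling chain of the interleukin-2 receptor, was higher by 0.98, a call lost without normal 3, AML 1 or AML 2 (adjusted p 0.0564, 0.0905 and 0.0889). Low genes of the list were read from pooled plain counts: Il10, the anti-inflammatory cytokine, was at 39.6 CPM in Treg cells and 5.64 in Foxp3-negative cells, a ratio of 7.02 (95% counting interval 4.41 to 11.4), higher in 5 of 6 libraries. Lrrc32, which holds latent TGF-beta on the Treg surface, was at 30.7 against 1.88 CPM, a ratio of 16.3 (8.03 to 36.5).

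**Figure D2:**
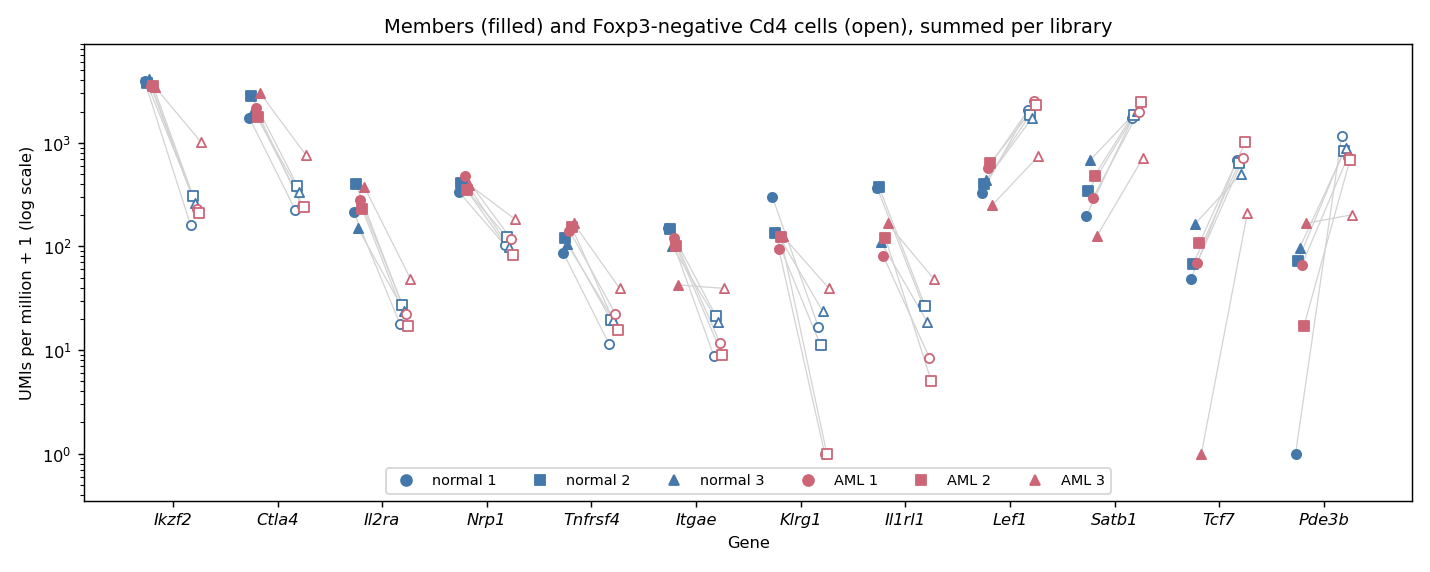
Counts of 12 genes summed per library in Treg cells (called members in the plots, filled) and Foxp3-negative CD4 cells (open), as CPM plus 1 on a log scale, with a line joining the 2 classes of a library. Ikzf2, Ctla4 and Il2ra separate the classes in all 6 libraries; Lef1, Satb1 and Tcf7 run the other way; AML 3 (red triangles) has the smallest gaps for Ikzf2 and Itgae.

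Genes of effector and tissue Treg cells were also higher. Klrg1, an inhibitory receptor for cadherins (chromosome 6, 122270596 to 122282882), stood at 298, 133 and 136 CPM in normal and 94.2, 122 and 125 CPM in AML Treg cells, against 15.6, 10.1 and 22.7 and 0, 0 and 38.3 CPM (3.88, SE 0.47, adjusted p = 9.82e-05). Il1rl1, the interleukin-33 receptor (chromosome 1, 40429570 to 40465415), stood at 369, 371 and 108 CPM and at 79.7, 119 and 166 CPM, against 26, 25.4 and 17.6 and 7.45, 3.99 and 47.9 CPM (3.47, SE 0.29, adjusted p = 4.25e-06). Itgae, the integrin chain that binds epithelial E-cadherin, stood at 149, 146 and 100 CPM and at 120, 99.6 and 41.5 CPM, against 7.80, 20.3 and 17.6 and 10.6, 7.97 and 38.3 CPM (3.05, SE 0.32, adjusted p = 2.84e-05). Treg sums were the higher ones in all 6 libraries for each of the 3, by the least in AML 3 for Itgae.

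Of 26 genes on that list 16 were tested, 13 of them higher and 1 lower, with a median of 1.40. Glrx, a thiol reductase, differed by 2.38 (SE 0.24), the transcription factors Prdm1 and Maf by 1.55 and 1.19, and Samsn1, an adaptor protein, by 1.48. Id2, an inhibitor of E-protein transcription factors, was the lower one at -0.89. Gata3 differed by 0.64 (adjusted p = 0.0481) and Rora by 0.55 (adjusted p = 0.0364), and each call was lost on leaving out any of 5 single libraries. Below the level for testing, Areg was at 71.8 CPM in Treg cells and 3.57 CPM in Foxp3-negative cells, a ratio of 20.1 (12.2 to 34.8), and Itgb8, the integrin chain that activates latent TGF-beta, at 83.7 and 5.08 CPM, a ratio of 16.5 (10.8 to 26.1). Both were higher in all 6 libraries. The 96 Areg UMIs lay in 25 of the 169 Treg cells. In AML lung 76.1% of them came from 3 cells, and in normal lung 64.0%. The intervals cover counting error only. Cxcr6, a tissue-homing chemokine receptor, went the other way at 10.5 against 40.8 CPM, a ratio of 0.256 (0.138 to 0.440), lower in all 6. Group 2 innate lymphoid cells share Il1rl1, Areg, Gata3 and Rora with tissue Treg cells. Of their other listed markers Il13, Il5, Calca and Arg1 were at 0 in Treg cells, while Ly6a had 384, Kit 12 and Hs3st1 2 UMIs. Il5 and Il13 were hardly found in Foxp3-negative cells either, at 2 and 1 UMIs. The part of RNA from innate lymphoid cells was not tested.

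Receptors of the tumour necrosis factor family made up the largest differences among costimulatory genes. Tnfrsf4 (OX40) stood at 86.3, 119 and 104 CPM in normal and 141, 154 and 166 CPM in AML Treg cells, against 10.4 to 38.3 CPM in the Foxp3-negative sums (2.78, SE 0.23, adjusted p = 4.25e-06), with no overlap between classes. Tnfrsf9 (4-1BB) was higher in 5 of 6 libraries, at 104 to 188 CPM against 2.66 to 105 CPM (3.25, SE 0.41), and in AML 3 it was 104 against 105 CPM. Tnfrsf1b (the type 2 TNF receptor) differed by 1.77 (SE 0.19) and Tnfrsf18 (GITR) by 1.72 (SE 0.22). Of 10 tested costimulatory genes, 8 were higher, among them Icos by 0.72, and 2 were lower, Cd226 by -1.10 and Cd28 by -0.48, with a median of 0.79. Of 8 tested inhibitory receptors and regulators, 5 were higher, with Tigit at 2.06 (SE 0.29), Tox at 1.15 and Cd274 at 0.78 beside Ctla4 and Cd5, and 2 were lower, Cd96 at -1.0 and Btla at -0.88. Tigit and Cd226 bind the same ligands with opposite effect, and here the inhibitory one was higher and the activating one lower.

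The genes of resting and central T cells were lower almost throughout. Of 15 tested, 13 were lower and none higher, with a median of -1.27 (14 of 16 lower without AML 3). Tcf7, the transcription factor of T cell stemness (chromosome 11, 52252371 to 52283014), stood at 47.1, 66.3 and 164 CPM in normal and 68.8, 106 and 0 CPM in AML Treg cells, against 686, 635 and 503 and 710, 1014 and 211 CPM (-2.99, SE 0.26, adjusted p = 5.53e-06). Lef1, its relative, was at 249 to 633 CPM against 738 to 2508 CPM (-2.11, SE 0.14), and Satb1, a chromatin organiser that Foxp3 is known to repress, at 125 to 685 against 709 to 2462 CPM (-2.41, SE 0.18). No Treg sum of these 3 genes reached any Foxp3-negative sum. Bach2, a repressor of effector programmes, differed by -1.80 and Foxp1 by -1.27. The interleukin-7 receptor Il7r, low on Treg cells and used to sort them, was at 231 to 769 CPM against 724 to 1241 CPM (-1.13, SE 0.15), and the survival gene Bcl2 differed by -1.41.

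Among 26 tested transcription factors of Treg fate 8 were higher and 7 lower, with a median of -0.03. Within the Ikaros family Ikzf2, Ikzf4 and Ikzf3 (0.88) were higher, while Ikzf1 was lower in all 6 libraries, at 353 to 562 CPM against 1006 to 1610 CPM (-1.46, SE 0.15). Foxo3, which restrains T cell activation, was lower by -0.71. Runx1 and Cbfb, partners of Foxp3 in DNA binding, did not pass the test (-0.07 and -0.16).

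Homing receptors were split. Of 18 tested, 5 were higher and 4 lower, with a median of 0.03. Among the higher ones beside Itgae were the chemokine receptors Ccr2 (1.37) and Ccr4 (1.31) and the integrin chain Itgb7 (0.64), the partner of Itgae. Among the lower ones were the lymph node homing receptor Ccr7 (-1.96, SE 0.50), the oxysterol receptor Gpr183 (-1.20) and the egress receptor S1pr1 (-0.74). Ccr7 in Treg cells ranged from 0 to 349 CPM with the highest level in normal 3, above the 225 CPM of that library's Foxp3-negative cells, and its call was lost without normal 2 or AML 2 (adjusted p 0.0569 and 0.0545). In the Treg cells of normal 3 a list of 13 dendritic cell genes, which holds Ccr7, summed to 930 CPM, against 38.2 to 272 CPM in the other libraries; of its genes Ccl22 had 76 and Fscn1 51 UMIs there, each in 2 cells, and both were at 0 elsewhere. The part of RNA from dendritic cells in the level of Ccr7 was not tested. The call for Ccr2 was lost without normal 1, normal 2 or AML 2 (adjusted p 0.0770, 0.0736 and 0.0546).

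Among helper genes Cd40lg, Il2 and Il4 were lower in Treg cells, while Ifng and Tnf were not told apart. Cd40lg, the ligand with which helper cells license B cells and dendritic cells, was the 1 gene of 7 tested helper genes to pass, at 6.43 to 112 CPM against 145 to 281 CPM (-2.34, SE 0.41, adjusted p = 0.00161), and the median of the 7 was -0.44. Il2 was at 0 of 1337683 Treg UMIs and at 45 UMIs (8.46 CPM, in 5 libraries) in Foxp3-negative cells, at least 3.77-fold lower against a limit of 3 counts over the group. Il4 was at 1 against 32 UMIs, a ratio of 0.124 (0.00305 to 0.744), and Ifng at 12 against 84 UMIs, a ratio of 0.568 (0.282 to 1.05) whose interval includes 1. Tnf was at 14 against 69 UMIs, a ratio of 0.807 (0.419 to 1.45), higher in 3 libraries and lower in 3. Il17a was at 0 against 52 UMIs, all 52 from normal 3, so that difference rests on 1 library.

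Genes of interleukin-2 and T cell receptor signalling differed in part. Of 12 tested genes of the interleukin-2 and STAT5 axis 4 were higher, Il2ra, Il2rb, the feedback inhibitor Cish (1.45) and the kinase Pim1 at 612 to 1245 CPM against 244 to 623 CPM (1.24, SE 0.12), and 3 were lower, Bcl2, Il7r and Jak1 (-0.53); the median was 0.15. Of 12 tested genes of the T cell receptor response 6 were higher and none lower, with a median of 0.63. They were Nfkbid (1.03), Nr4a3 (0.97), Rel (0.78), Cd5 (0.68), Nfkb1 (0.57) and Nfkbia (0.56), of which Rel and Nfkbid are NF-kappaB components that Foxp3 induction needs. The calls for Nfkbid and Nfkbia were each lost without 1 library (normal 2, adjusted p 0.0506, and AML 2, adjusted p 0.0518), and Cd5 was lost without normal 2 (adjusted p 0.0532).

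For TGF-beta, receptor chains for the cytokine were lower and an integrin chain that helps to free it was higher. The receptor chain Tgfbr2 stood at 129 to 267 CPM in Treg cells and 393 to 766 CPM in Foxp3-negative cells (-2.02, SE 0.18, adjusted p = 7.54e-06), and the co-receptor Tgfbr3 at 10.9 to 35.3 against 47.9 to 237 CPM (-3.13, SE 0.27). Smad7 and Smad4 differed by -1.25 and -0.76. Itgav, the partner chain of Itgb8, stood at 344 to 664 against 107 to 354 CPM (1.75, SE 0.16, adjusted p = 6.51e-06). Of the 11 genes tested on the list, which does not hold Tgfbr3, 1 was higher and 3 lower, with a median of -0.24.

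Cell cycle transcripts were more abundant in Treg cells. Of 17 tested cell cycle genes 15 were higher and none lower, with a median of 1.34 (19 of 20 without AML 3). Mki67 stood at 400, 482 and 657 CPM in normal and 503, 183 and 83.0 CPM in AML Treg cells, against 300, 234 and 120 and 89.4, 19.9 and 182 CPM (1.64, SE 0.35, adjusted p = 0.00546). Birc5, the survivin gene of mitosis, differed by 1.64 (SE 0.32) and Cdk1 by 1.67 (SE 0.36). AML 3 was the exception for Mki67, Birc5, Stmn1 and Top2a, with a lower sum in Treg cells than in Foxp3-negative cells. Median depth in AML 3 was 1213 UMIs in Treg and 1211.5 in Foxp3-negative cells. It was 11045 against 9367.5, 7597 against 5735 and 5736 against 4351 in normal 1 to normal 3. In AML 1 and AML 2 it was 11021 against 7764 and 6612.5 against 4756.5. The part of depth in these differences was not tested. Of the 169 Treg cells, 56 carried Mki67 or Top2a.

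Other programmes differed less, and several of the counts lie near the shares over all tested genes, 9.51% higher and 8.16% lower. Oxidative phosphorylation had 7 of 32 genes higher and a median of 0.35, with Cox8a at 0.60 (SE 0.13), glycolysis 3 of 12 higher with a median of 0.54, and MHC class I 2 of 15 higher with a median of 0.30. Hif1a, the hypoxia factor, was higher in all 6 libraries (0.68, SE 0.14). Interferon response genes had 4 of 28 higher and 2 lower, with a median of 0.19; Ifi27l2a stood at 1126 to 2526 CPM against 405 to 1015 CPM (1.47, SE 0.20), and the Schlafen genes Slfn1 and Slfn2 were the lower ones (-1.28 and -0.70). Immediate early and heat shock genes, which rise during tissue digestion, had 4 of 15 higher and 1 lower, with a median of 0.08. Single libraries decided several of these calls. Fos, Fosb and Zfp36 were lost without AML 1 (adjusted p 0.0726, 0.0513 and 0.0952), and Jun, the lower one, in 5 of 6 settings. Both MHC class I calls, H2-D1 and Tapbp, were lost without normal 2 (adjusted p 0.0919 and 0.0935) or AML 2 (adjusted p 0.102 and 0.101). Of the glycolysis calls Gapdh was lost in 4 of 6 settings, and of the oxidative phosphorylation calls Sdhb in all 6.

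**Figure D3:**
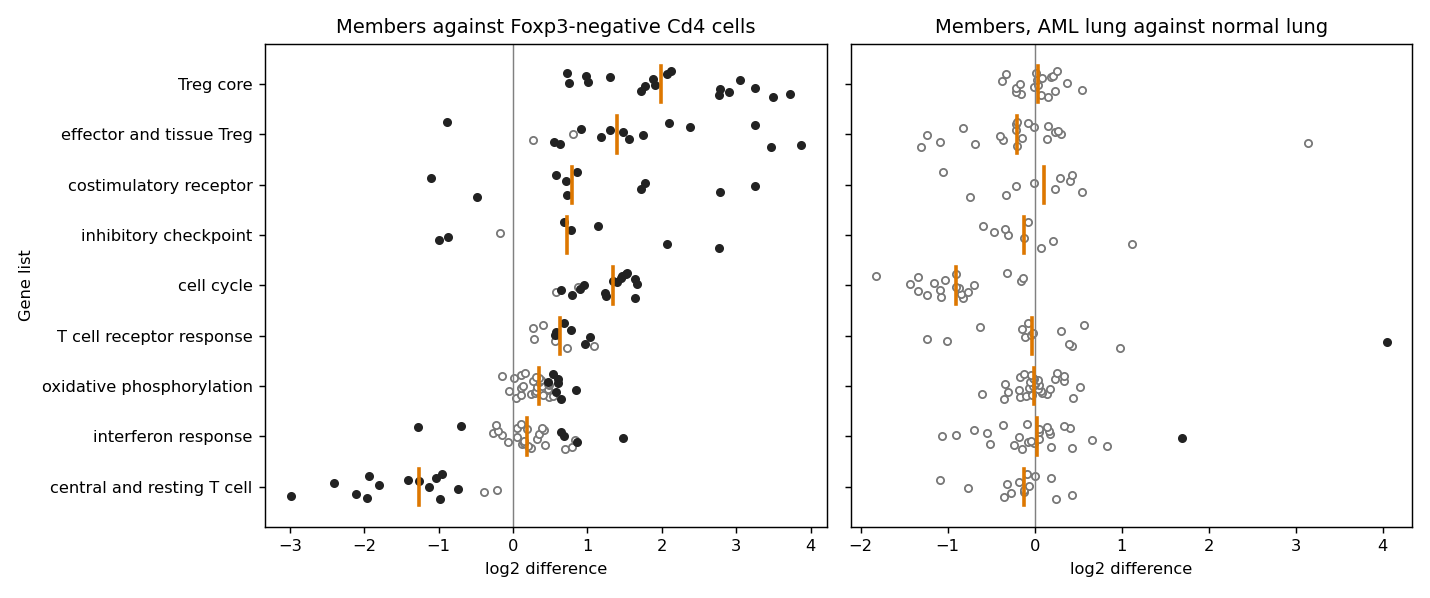
Log2 differences of every tested gene of 9 gene lists, between Treg cells and Foxp3-negative CD4 cells (left) and between Treg cells of AML and normal lung (right). Each point is a gene, filled where the adjusted p is under 0.05, and the orange bar is the list's median; on the left the Treg core sits at a median of 1.99 and the resting list at -1.27, and on the right only Egr1 and Ly6a are filled.

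Outside the lists, the largest increases that had the same direction in all 6 libraries included Ankrd55 (3.32, SE 0.32), the laminin chain Lamc1 at 209 to 400 CPM against 14.9 to 95.8 CPM (3.14, SE 0.24, adjusted p = 1.73e-06), the giant muscle protein gene Neb (2.99, SE 0.26) and the small GTPase activator Rapgef5 (2.76, SE 0.49). The largest decreases included the phosphodiesterase Pde3b, a gene repressed by Foxp3, at 0 to 166 CPM against 201 to 1165 CPM (-3.76, SE 0.43, adjusted p = 5.08e-05). Igfbp4 (-3.34, SE 0.32), Rapgef4 (-3.27, SE 0.37), Mctp2 (-3.20, SE 0.50), the ganglioside synthase St8sia1 (-2.64, SE 0.31) and Slc49a4 (-2.19, SE 0.32) followed. Each of these 10 calls held on leaving out each library in turn, Igfbp4 in the 5 of 6 settings in which it could be tested.

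Some genes listed as markers of other cell types were also higher. Ighm, the immunoglobulin heavy chain constant region of B cells, stood at 439, 318 and 449 CPM in normal and 250, 418 and 270 CPM in AML Treg cells, against 76.7, 89.3 and 139 and 112, 83.7 and 220 CPM in Foxp3-negative cells (1.74, SE 0.22, adjusted p = 0.000130). It was higher in Treg cells in all 6 libraries. Over the same Treg cells the B cell marker Ms4a1 was at 0 UMIs and Cd79b at 18, beside 452 of Ighm; Cd79a was limited by the rule. Of 5 tested B cell genes, Ighm was the only one to pass. The part of RNA from B cells in this difference was not tested. Pglyrp1, on the list of nonclassical monocyte genes, was at 90.6 to 124 CPM against 27.7 to 172 CPM, higher in 5 of 6 libraries (1.26, SE 0.27, adjusted p = 0.00613).

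Between AML and normal lung few genes of Treg cells differed, and none of them was on the list of Treg core genes. Of 4516 genes tested, 25 (0.554%) were higher in AML Treg cells and 4 (0.0886%) lower, with 378 under an unadjusted p of 0.05 and a median of -0.00191. No gene of the Treg core (19 tested, median 0.04), of the effector and tissue list (20 tested, median -0.21), of the resting list (14 tested, median -0.12), of the costimulatory list (10 tested, median 0.11) or of the transcription factors (27 tested, median -0.15) passed the test. Ctla4 stood at 1805, 2909 and 2102 CPM in normal and 2251, 1859 and 3188 CPM in AML Treg cells (0.07, SE 0.24, adjusted p = 0.991), and Il2ra at 219, 408 and 152 and at 290, 239 and 390 CPM (0.15, SE 0.36, adjusted p = 0.973). Ikzf2 stood at 4080, 3908 and 4232 CPM and at 3650, 3735 and 3600 CPM (-0.15, SE 0.15, adjusted p = 0.886). The groups overlapped for Ctla4 and Il2ra and did not for Ikzf2, which was lower in AML lung; over all genes 7.24% did not overlap with AML higher and 7.71% with AML lower.

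Ly6a, a surface protein of activated lymphocytes (Sca-1, an interferon response gene; chromosome 15, 74994877 to 74998031), stood at 186, 150 and 148 CPM in normal and 584, 356 and 672 CPM in AML Treg cells (1.70, SE 0.29, adjusted p = 0.0210). All 3 AML sums lay above all 3 normal ones, and 46 of 98 AML against 23 of 71 normal Treg cells held a UMI. In AML 1, 83 of its 155 UMIs came from 1 cell, and 42.1% of its AML UMIs came from 3 cells. Without the 17 Treg cells over a limit of 0.5% of UMIs from 13 myeloid and B cell genes, described below, the difference was 1.91. It was still past the threshold (adjusted p = 0.0232). The part of RNA from other cells in this difference was not tested. The call was lost without normal 1, normal 2, normal 3 or AML 1 (adjusted p 0.0786, 0.171, 0.0870 and 0.0727). Of 26 tested interferon response genes Ly6a alone passed, and the list's median was 0.03. In Foxp3-negative cells of the same libraries Ly6a was at 176 to 236 CPM in normal and 276 to 584 CPM in AML lung, on the scaling of the joint fit, and the difference between the 2 AML effects was 0.89 (SE 0.31, adjusted p = 0.678).

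Among the higher genes were genes of myeloid and antigen-presenting cells. Il1b, an inflammatory cytokine of myeloid cells, was at 0 UMIs in all normal Treg cells and at 13, 52 and 28 UMIs in AML 1 to AML 3. With the 0 set to 3 counts over the group the level was 29.3-fold higher in AML Treg cells. Cd74, the MHC class II invariant chain, stood at 138, 72.6 and 243 CPM in normal and 1836, 3355 and 455 CPM in AML Treg cells (3.67, SE 0.57, adjusted p = 0.0144). For some of them few cells held the transcripts: the class II gene H2-Eb1 held 189 of its 189 UMIs in AML 1 in a single cell, and 98.7% of its AML UMIs came from 3 cells. For 19 of the 25 higher genes at least 50% of the AML UMIs came from 3 of 98 Treg cells. Pid1, an adaptor gene, was at 1 UMI in normal and 133 UMIs in AML Treg cells, a pooled ratio of 126 (22.2 to 5005) whose interval covers counting error only. In AML 1, 87 of its 92 UMIs came from 1 cell, and without AML 1 the ratio was 67.5 (11.5 to 2732).

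Transcripts of other cell types differed between the libraries as well, but not all in the same ones. In Treg cells 15 B cell genes summed to 439 to 803 CPM in normal libraries and to 3402, 5917 and 1338 CPM in AML 1 to AML 3. The class II genes Cd74, H2-Aa, H2-Ab1 and H2-Eb1, of which 3 are among the called genes, supplied 916 of 996 of these UMIs in AML 1 and 1870 of 2026 in AML 2. The other 11 B cell genes summed to 365 to 484 CPM in normal libraries and to 273, 456 and 784 CPM in AML 1 to AML 3. For 12 neutrophil genes the sums were 37.2 to 58.3 CPM in normal libraries and 51.2, 178 and 2161 CPM in AML 1 to AML 3, for 10 classical monocyte genes 309 to 430 and 400, 666 and 2333 CPM, and for 12 alveolar macrophage genes 201 to 223 and 280, 120 and 2180 CPM. The high sums of these 3 lists were those of AML 3, whereas Cd74 and H2-Eb1 were highest in AML 1 and AML 2. Foxp3-negative cells of AML 3 were high as well, at 1979, 2174 and 1287 CPM for the neutrophil, monocyte and macrophage lists. Their 15 B cell genes summed to 138 to 1945 CPM in normal and 316 to 1704 CPM in AML libraries. In Treg cells 10 nonclassical monocyte genes summed to 457 to 570 CPM in normal and 683, 523 and 784 CPM in AML libraries. Spn, Itgal and Pglyrp1 held 270, 207 and 127 of the 760 UMIs. Adgre4 had 0, 0 and 1 UMIs in normal and 29, 13 and 5 in AML libraries, and Fcgr4 0, 0 and 0 and 20, 2 and 4. Of dendritic cell genes Cd209a was found in AML 1 and AML 2 alone, and Xcr1 and Clec9a in AML 2 alone. Ccl22 and Fscn1 were found in normal 3 alone. At least 1 UMI was found for 14 of the 15 B cell, 10 of the 12 neutrophil, 10 of 10 monocyte and 12 of 12 macrophage genes, with Ms4a1, Ngp and Ltf at 0. More than 0.5% of UMIs from 13 myeloid and B cell genes (Lyz2, Tyrobp, Fcer1g, Csf1r, H2-Aa, H2-Ab1, H2-Eb1, Ms4a1, Cd79b, Ighm, S100a8, S100a9 and Chil3) was found in 17 Treg cells, 1 in normal lung (normal 3) and 1, 2 and 13 in AML 1, AML 2 and AML 3. Of these 17, 14 carried Ctla4 or Ikzf2. Without them, a step added after the data were seen, 11 genes were called, 9 higher and 2 lower, 10 of them among the 29; Il1b (6.89), Slc8a1 (4.41), Fgr (5.01), Zeb2 (3.79) and Ifitm3 (2.96) remained higher, Cd74 was at 0.73 (adjusted p = 0.911), and 11 of the 29 were no longer abundant enough to test. H2-Aa, H2-Eb1 and Tyrobp are among both the 13 and the 29, and 475 of the 487 Cd74 UMIs of AML 1 came from 1 cell. The step thus removes these transcripts by its construction, and nothing is read from their loss. Nothing is read from the calls that remained either. The Treg cell that Scrublet marked held 0.399% from the 13 genes and stayed in. Ighm, one of the 13, was itself higher in Treg cells. RNA of other cells left after the step was not tested.

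Lower in AML Treg cells were Adam12, Anln, Hist1h2ae and Hist1h2ab. Adam12, a metalloprotease of activated T cells (chromosome 7, 133883199 to 134232146), stood at 308, 132 and 90.7 CPM in normal and 11.3, 6.72 and 43.4 CPM in AML Treg cells (-3.74, SE 0.66, adjusted p = 0.0210), with no overlap. In normal 1, 34 of its 38 UMIs came from 1 cell, and the call was lost without normal 1, normal 2, AML 1 or AML 2. Hist1h2ae, a replication-dependent histone gene, stood at 688, 926 and 779 CPM in normal and 264, 74.0 and 65.1 CPM in AML Treg cells (-2.40, SE 0.41, adjusted p = 0.0203), with all 85 UMIs of normal 1 from 1 cell, and was lost without normal 1, normal 2, normal 3 or AML 2. Anln, a cytokinesis scaffold, differed by -2.77 (SE 0.56, adjusted p = 0.0439) and Hist1h2ab by -2.25 (SE 0.45, adjusted p = 0.0407). Anln was lost on leaving out any of the 6 libraries (adjusted p 0.0602 to 0.225), and Hist1h2ab on leaving out any but AML 1. Histone genes have near-identical copies, so their reads may be split among family members.

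**Figure D4:**
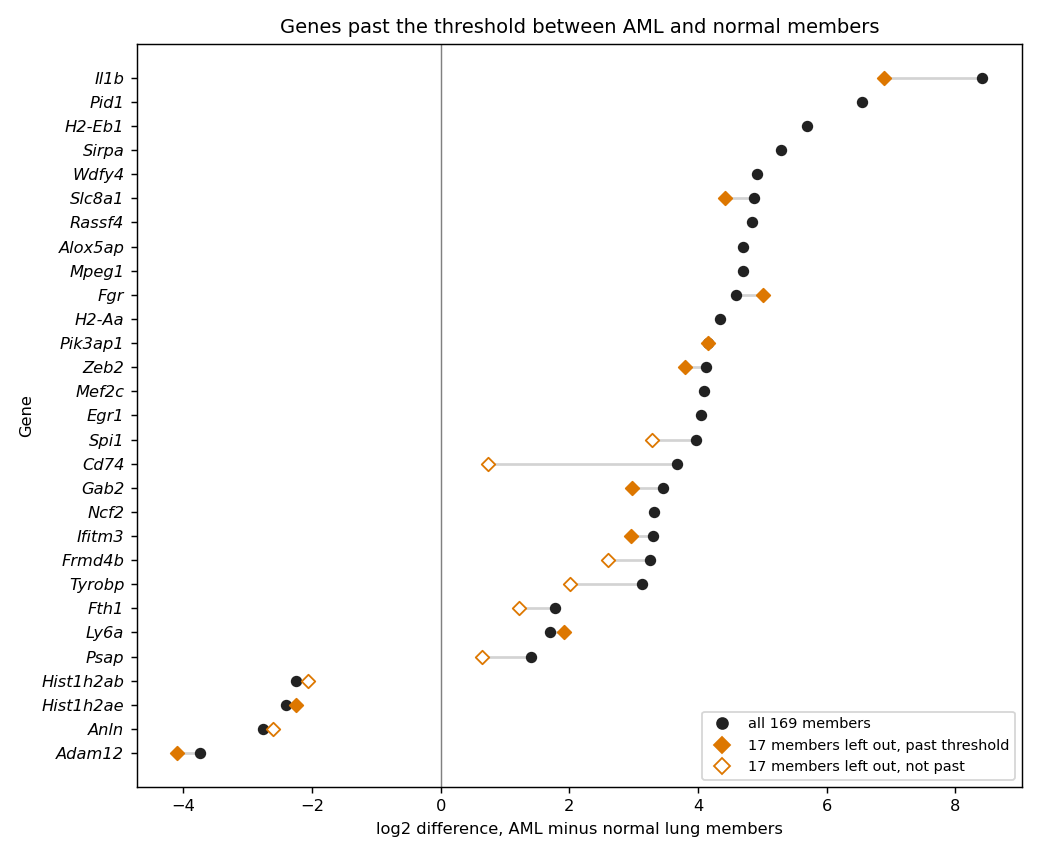
Log2 differences between Treg cells of AML and normal lung for the 29 genes past the threshold (black), and for the same genes without the 17 Treg cells with over 0.5% of UMIs from 13 myeloid and B cell genes (orange, filled where still past it; no orange point where the gene could no longer be tested). Ly6a, Adam12 and Hist1h2ae are among the genes still past the threshold.

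Cell cycle genes leaned the same way without passing the test. All 19 tested genes had a negative difference in AML Treg cells, none passed, and their median was -0.91. For 7 of them the groups did not overlap, beside 7.71% of all genes in that direction. Tuba1b stood at 308, 349 and 367 CPM in normal and 189, 94.1 and 108 CPM in AML Treg cells (-1.34, SE 0.31, adjusted p = 0.0883), and Mki67 at 413, 495 and 676 and at 524, 192 and 86.7 CPM (-0.82, SE 0.42, adjusted p = 0.644). In normal 1 most UMIs of several of these genes came from 1 cell, 34 of 38 for Tuba1b, 38 of 40 for Pcna, 14 of 16 for Rrm2 and 9 of 10 for Cdk1. The share of Treg cells with Mki67 or Top2a was 40.0%, 39.3% and 45.5% in normal and 42.9%, 29.5% and 12.1% in AML libraries. AML 1 was thus within the normal range and AML 3, the shallowest library, was the lowest. The list's median was -0.73 without AML 3 and -0.81 without the 17 cells.

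Other genes had groups apart but missed the threshold. Over all genes 7.24% did not overlap with AML higher and 7.71% with AML lower, and those named here are a few of these. The cytokine signal transducer Stat3 stood at 178, 227 and 276 CPM in normal and 430, 850 and 499 CPM in AML Treg cells (1.39, SE 0.30, adjusted p = 0.0649). Bcl2 stood at 372, 404 and 573 and at 222, 222 and 173 CPM (-1.09, SE 0.26, adjusted p = 0.110), and all 46 UMIs of normal 1 came from 1 of its 10 cells. Gata3 stood at 275, 263 and 280 and at 147, 141 and 43.4 CPM (-1.09, SE 0.32, adjusted p = 0.225), with 19 of the 34 UMIs of normal 1 in 1 cell. Tissue markers overlapped between groups, with Il1rl1 at 380, 381 and 111 against 83.0, 124 and 173 CPM (-1.31, SE 0.45, adjusted p = 0.390) and Areg at 48.6, 177 and 20.6 against 67.9, 87.4 and 43.4 CPM (-0.20, SE 0.61, adjusted p = 0.985).

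Single libraries decided how many genes were called between AML and normal lung. The 29 became 0 without normal 1 (418 genes under an unadjusted p of 0.05) or without normal 2 (441), 11 without normal 3, and 29 without AML 3. DESeq2 called 43.

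Whether AML lung changed Treg cells otherwise than it changed Foxp3-negative CD4 cells was tested as an interaction. Of 6010 genes 5 (0.0832%) had a higher AML effect in Treg cells and 0 a lower one, with 342 under an unadjusted p of 0.05. H2-Eb1, Pid1, Wdfy4, Egr1 and Lyz2 were the 5, of which H2-Eb1, Wdfy4 and Lyz2 are genes of antigen-presenting or myeloid cells. H2-Eb1 stood at 0, 4.29 and 23.4 CPM in normal and 660, 871 and 77.0 CPM in AML Treg cells, against 3.82, 103 and 287 and 55.2, 49.3 and 102 CPM in Foxp3-negative cells (7.18, SE 0.82, adjusted p = 0.00235). The groups did not overlap in Treg cells and overlapped in Foxp3-negative cells. Of all genes tested between AML and normal Treg cells, 7.24% did not overlap with AML higher. In AML Treg cells 98.7% of the H2-Eb1 and 67.6% of the Egr1 UMIs came from 3 of 98 cells. Egr1, an immediate early transcription factor, stood at 15.1, 4.29 and 7.81 and at 87.3, 96.1 and 347 CPM in Treg cells, against 25.5, 9.94 and 76.4 and 20.8, 20.8 and 120 CPM (4.11, SE 0.68, adjusted p = 0.0309). Without cells of either class over the 0.5% limit, 0 genes passed (227 under an unadjusted p of 0.05), but of the 5 only Lyz2, one of the 13 genes of the limit, could still be tested. DESeq2 called 2. The 5 became 1 without normal 1 or AML 2, 2 without normal 3, 3 without AML 1, 10 without normal 2 and 18 without AML 3. Ctla4, Ikzf2 and Il2ra did not pass (-0.12, SE 0.29; -0.74, SE 0.47; 0.19, SE 0.44).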

How the data were processed

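The data are UMI counts per gene and cell barcode of 6 droplet libraries (10x Genomics 3′ kit v3.1, per the labels' protocols), 3 of normal and 3 of AML-infiltrated lung. The authors deposited whole-number counts, not normalized, made with Cell Ranger 7.0.0 on mm10, per the submitters' processing notes. The sources used here do not say how the deposited barcodes were called.

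Cells with at least 500 UMIs, at least 200 genes and under 10% mitochondrial UMIs were kept, 71634 in all. Doublets were not removed; Scrublet in scanpy 1.11.5 marked 1 of the 169 Treg cells, and leaving its calls out was an alternative. Counts were summed per library and class and compared by edgeR 4.0.16 under R 4.3.3 (TMM, filterByExpr, quasi-likelihood F test, Benjamini-Hochberg at 0.05), with the library as a block where both classes come from the same libraries. Libraries needed at least 10 cells of a class. A standard error is the size of the log2 difference over the square root of F. Pooled ratios carry exact 95% intervals that cover counting error only, and a count of 0 was set to 3 counts over the group. Shares per library were compared with exact two-sided permutation tests over 20 arrangements. Thinned shares are means over 20 draws. The fits were tested on simulated data. DESeq2 1.42.0, other size factors, filters and cell definitions and leaving out each library were alternatives.

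The genes named are the largest differences with the same direction in every library (between AML and normal lung, without overlap) with a mean abundance of 5 or more in log2 CPM, and up to 5 genes per list by smallest p; gate, ribosomal, mitochondrial, antigen receptor and predicted genes were left out. Other genes named here (such as Il10, Areg, Il2, Cxcr6, Entpd1, Foxo3, Stat3 and Ifitm3) were chosen after their values were seen. The cells, gene lists and marker lists were chosen with earlier results of these data known. A planned split of the Treg cells by marker genes is not reported here. Gene positions come from GENCODE on GRCm38, which mm10 denotes.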

Additional observations from a re-analysis of the deposited data

Results flagged for a closer look

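For 5 genes the difference between AML and normal lung was not the same in Treg cells as in Foxp3-negative CD4 cells, by an interaction term in edgeR's quasi-likelihood test with Benjamini-Hochberg adjustment over 6010 genes. The log2 difference between the 2 AML effects was 7.18 for H2-Eb1 (SE 0.82, adjusted p = 0.00235), 7.08 for Pid1 (SE 1.13, adjusted p = 0.0305), 5.57 for Wdfy4 (SE 0.90, adjusted p = 0.0305), 4.11 for Egr1 (SE 0.68, adjusted p = 0.0309) and 3.56 for Lyz2 (SE 0.54, adjusted p = 0.0305). Lyz2, the lysozyme gene of myeloid cells, stood at 15.1, 12.9 and 46.9 CPM in normal and 90.8, 186 and 732 CPM in AML Treg cells, against 39.5, 206 and 511 and 120, 84.3 and 890 CPM in Foxp3-negative cells. Pid1 stood at 0, 4.29 and 0 and at 321, 102 and 154 CPM in Treg cells, against 22.9, 29.8 and 174 and 68.7, 20.8 and 232 CPM. Wdfy4, a gene of antigen-presenting cells, stood at 0, 0 and 7.81 and at 73.3, 152 and 96.3 CPM, against 2.55, 4.97 and 80.5 and 23.9, 18.2 and 37.1 CPM. For these 3 genes normal and AML libraries did not overlap in Treg cells and overlapped in Foxp3-negative cells. Of all genes tested between AML and normal Treg cells, 7.24% did not overlap with AML higher. H2-Eb1 was called on leaving out each of the 6 libraries, with a largest adjusted p of 0.0489, and the other 4 were each called in 2 of the 6 settings. Few cells held these transcripts. Of the AML Treg UMIs, 98.7% for H2-Eb1, 82.7% for Pid1 and 85.3% for Wdfy4 came from 3 of 98 cells. For Egr1 and Lyz2 it was 67.6% and 44.4%. Leaving out whole libraries does not show how far a call rests on so few cells. Without cells over the 0.5% limit on 13 myeloid and B cell genes only Lyz2 of the 5 could still be tested. It was at 1.71 and did not pass, and Lyz2 and H2-Eb1 are among the 13. The part of RNA from other cells in these results was not tested.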

How the results depend on the processing

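The share of Treg cells among Cd3-positive cells, -0.225 percentage points (AML minus normal), was 7.93 with the Treg and Foxp3-negative CD4 cells as denominator, 0.118 with at least 2 Cd3 UMIs, 0.0146 and 0.0566 with cells thinned to 1000 and 500 UMIs, and -0.700 to 0.300 on leaving out each library; Foxp3 per 1000 Cd3 UMIs gave 3.08 on its own scale. Over Treg and Foxp3-negative CD4 cells together the share was 11.4%, 15.8% and 12.6% in normal 1 to normal 3. In AML 1 to AML 3 it was 13.6%, 19.6% and 30.3% (exact permutation p = 0.2). The value of AML 3 rests on 33 Treg and 76 Foxp3-negative cells. Only the second class had to hold a Cd4 UMI, which 4 of these 33 Treg cells held. The 879 genes that separated Treg from Foxp3-negative cells became 555 to 1061 on leaving out each library. None of the 86 named genes changed direction in any setting in which it was tested. The 29 genes between AML and normal Treg cells became 0 to 30 on leaving out each library and 247 without the filter. They became 12 without the 1 Treg cell marked by Scrublet, and 11 without cells over the 0.5% limit on 13 myeloid and B cell genes. They became 0 with at least 2 Foxp3 UMIs (240 under an unadjusted p of 0.05) or with a Cd4 UMI (234). The count was also 0 in 1 fit with the Foxp3-negative cells (643) or in libraries with at least 20 Treg cells (418). Some of these settings also dropped libraries. With at least 2 Foxp3 UMIs normal 1 and AML 3 held 8 and 3 Treg cells, and with a Cd4 UMI 6 and 4, below the minimum of 10. Both were thus left out there, and normal 1 also where at least 20 were needed. Leaving out normal 1 alone gave 0 calls, so these settings do not show what a stricter cell definition does. DESeq2 called 43. With the replicate block they were 50. Same-numbered libraries had correlations of 0.0570, -0.0369 and 0.0359, and differently numbered ones -0.0691 to 0.0492. With 3 libraries per group these values do not decide whether the numbers pair the libraries. The 5 interaction calls became 1 to 18 on leaving out each library, 72 without the filter, 2 by DESeq2 and 0 without cells over the 0.5% limit. The cause of these changes was not tested. Gene comparisons on cells thinned to 1000 UMIs were not run, since only AML 3 kept 10 Treg cells. Depth limits the reading of AML 3, with 52301 Treg UMIs, and of normal 1, with 10 cells.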

Other observations

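Foxp3 UMIs also occurred outside the rule. Of 2446 T cells with a Cd8 UMI 28 (1.14%) held Foxp3, beside 0.0951% of B cells, 0.128% of alveolar macrophages and 0.0439% of nonclassical monocytes. The median depth of the cells with Cd8 ran from 1667 UMIs in AML 3 to 10804 in normal 1, and that of B cells from 1283 to 7599 in the same libraries. The difference was not tested. Of the 62 Foxp3-positive cells without a Cd3 UMI 32 came from AML 3, as did 19 of the 27 that failed on the excluded genes. Among Foxp3-negative CD4 cells 23.7% carried at least 2 of Ctla4, Il2ra and Ikzf2 in AML 3, against 9.44% to 20.1% in the other 5 libraries.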
